A study of Mus musculus with 9 samples.

Results

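Troponin is the calcium switch of striated muscle, and its 8 genes were followed here across the conversion of mouse embryonic fibroblasts (MEFs) toward muscle. The genes were chosen by name: Tnnt1, Tnnt2 and Tnnt3 for troponin T, Tnni1, Tnni2 and Tnni3 for troponin I, and Tnnc1 and Tnnc2 for troponin C. They are 8 of 35675 genes with a total in these libraries, and all 8 were among the 15714 genes that passed the filter on low counts. Polyadenylated RNA was sequenced from 9 libraries in 3 groups of 3, all from Dmdmdx MEFs, which carry a mutation in the dystrophin gene Dmd. The MyoD F/R/C group had ectopic MyoD together with the small molecules that the labels give as F/R/C and do not spell out. The MyoD group had ectopic MyoD without them, and the MEF group had no treatment. MyoD, encoded by Myod1, is a transcription factor that starts the skeletal muscle programme. The labels give neither the time of treatment nor the way MyoD was delivered, and they do not state whether replicates were separate cultures or embryos. The p-values therefore measure only the spread between these libraries, which may be technical.

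Troponin sits on the thin filament of the sarcomere as a complex of 3 subunits. Troponin C binds calcium, troponin I holds back the interaction of actin with myosin until calcium arrives, and troponin T ties both to tropomyosin. Fast skeletal muscle uses Tnnt3, Tnni2 and Tnnc2. Slow skeletal muscle uses Tnnt1, Tnni1 and Tnnc1. The adult heart uses Tnnt2 and Tnni3, and shares Tnnc1 with slow muscle. The cardiac troponin T gene is also active for a time in developing skeletal muscle, and Tnni1 in the embryonic heart. The troponin T transcripts are spliced in many ways, mainly in the part that encodes the acidic amino end.

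The libraries held 21066815 to 24175719 estimated counts, so that 3 counts, the most that a count of 0 allows, amounted to 0.113 to 0.144 CPM (counts scaled to the effective library size). Such floors cover counting error only. Myod1 stood at 261, 260 and 237 TPM in the MyoD F/R/C libraries, 8.14, 11.02 and 19.6 TPM in the MyoD libraries and 2.82, 0.460 and 6.50 TPM in the MEF libraries. TPM counts transcripts after scaling for transcript length and library total, and was summed here over the transcripts of a gene. These sums do not tell ectopic from endogenous Myod1 RNA. The part of the Myod1 difference between the groups in the troponin levels was not tested. MEF replicate 3 stood apart from the other MEF libraries, with 2574 troponin counts over the 8 genes, against 139 and 186 in replicates 1 and 2. The counts of troponin genes called against MEF are therefore given with and without it, as are those of some other gene lists. Fold changes of single genes against MEF include it unless stated otherwise. In bulk RNA, more muscle cells and more troponin RNA per cell cannot be told apart.

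Of the 8 troponin genes 7 were expressed at high level in the MyoD F/R/C libraries, and the exception was the cardiac inhibitory subunit Tnni3. The 8 genes together took 1.71%, 1.61% and 2.34% of all TPM in the MyoD F/R/C libraries. They took 0.0794%, 0.106% and 0.184% in the MyoD libraries, against 0.00235%, 0.00275% and 0.0302% in the MEF libraries. The groups did not overlap at any of these steps. Within the MyoD F/R/C libraries the mean levels ran, in TPM ± SD over 3 libraries, as 3639 ± 877 for Tnni1, 3632 ± 1139 for Tnnc1, 3129 ± 769 for Tnnc2, 2480 ± 386 for Tnnt3, 2171 ± 421 for Tnnt1, 2132 ± 434 for Tnni2 and 1670 ± 413 for Tnnt2. The ranges of each neighbouring pair in that order overlapped, but the genes were measured in the same libraries. Within every MyoD F/R/C library Tnnc2 exceeded Tnnt3, and Tnnt3 exceeded Tnnt1. The other neighbouring pairs changed order between libraries. Tnni3 followed at 4.13 ± 0.601 TPM, below every library of the other 7.

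**Figure D1:**
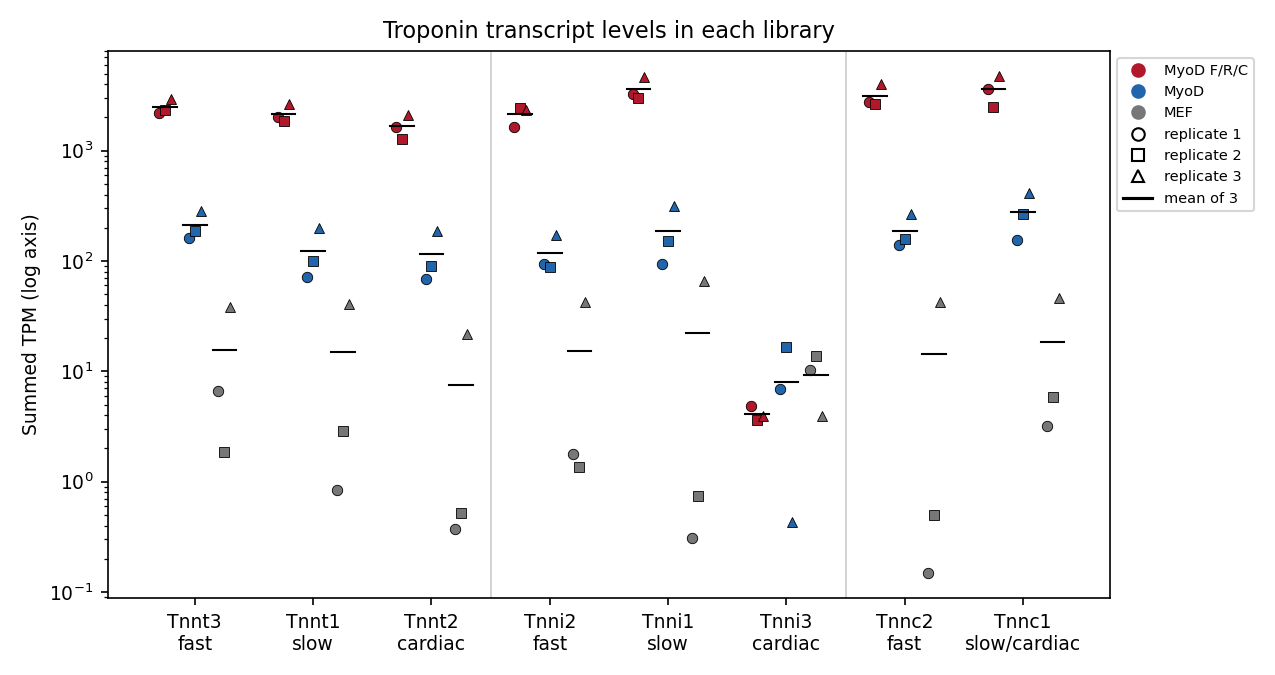
Summed TPM of each troponin gene in each library on a log axis, with MyoD F/R/C in red, MyoD in blue and MEF in grey; symbols give the replicate and the bar the mean of 3. The other 7 genes lie at 1271 TPM or more in all MyoD F/R/C libraries, between 68.2 and 417 TPM with MyoD alone and lowest in MEF, with MEF replicate 3 above the other MEF libraries; Tnni3 is at 16.6 TPM or less in every library.

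The troponin T genes, which encode the tropomyosin-binding subunit, were all higher with F/R/C than in either other group. Tnnt3 (ENSMUSG00000061723, plus strand, chr7:142498836-142516009, GRCm38), the fast form, had 2180, 2346 and 2915 TPM in the MyoD F/R/C libraries, 163, 186 and 282 TPM in the MyoD libraries and 6.60, 1.87 and 38.4 TPM in the MEF libraries. The 3 groups were fully separated, with MyoD above MEF and MyoD F/R/C above both. On the count scale Tnnt3 rose with F/R/C against MEF by a log2 fold change of 7.67 ± 1.27 SE (adjusted p = 0.00254, edgeR's quasi-likelihood test with Benjamini-Hochberg adjustment over all genes tested, as for all adjusted p-values here). Against MyoD it rose by 3.96 ± 1.07 (adjusted p = 0.0217). Prr33, which lies across Tnnt3 on the opposite strand, averaged 1.49 ± 0.143 CPM, against 1345 ± 451 CPM for Tnnt3, in the MyoD F/R/C libraries (SD, n = 3).

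Tnnt1 (ENSMUSG00000064179, minus strand, chr7:4504570-4516382), the slow form, had 2028, 1839 and 2645 TPM in the MyoD F/R/C libraries, 72.3, 101 and 198 TPM in the MyoD libraries and 0.847, 2.85 and 40.8 TPM in the MEF libraries. Again no library of 1 group reached into another. The log2 fold change was 7.66 ± 1.55 SE against MEF (adjusted p = 0.00574) and 4.49 ± 1.33 against MyoD (adjusted p = 0.0309). Tnnt2 (ENSMUSG00000026414, plus strand, chr1:135836354-135852260), the cardiac form, had 1644, 1271 and 2096 TPM in the MyoD F/R/C libraries, 68.2, 90.7 and 186 TPM in the MyoD libraries and 0.373, 0.523 and 21.7 TPM in the MEF libraries. The cardiac gene thus followed the same order of groups as the fast and slow genes, without overlap. Its log2 fold change was 7.98 ± 1.63 against MEF (adjusted p = 0.00608) and 4.27 ± 1.37 against MyoD (adjusted p = 0.0408).

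The troponin I genes encode the inhibitory subunit and differed among themselves. Tnni2 (ENSMUSG00000031097, plus strand, chr7:142441808-142444410), the fast form, had 1635, 2436 and 2325 TPM in the MyoD F/R/C libraries, 93.0, 88.7 and 174 TPM in the MyoD libraries and 1.79, 1.35 and 42.6 TPM in the MEF libraries. It rose with F/R/C, by a log2 fold change of 7.50 ± 1.49 SE relative to MEF (adjusted p = 0.00530) and of 4.52 ± 1.29 relative to MyoD (adjusted p = 0.0267). Tnni1 (ENSMUSG00000026418, plus strand, chr1:135779434-135810989), the slow form, had 3268, 3008 and 4641 TPM in the MyoD F/R/C libraries, 94.9, 151 and 317 TPM in the MyoD libraries and 0.311, 0.734 and 65.9 TPM in the MEF libraries. Both genes kept the groups apart. Tnni1 rose against MEF (7.69 ± 1.96, adjusted p = 0.0152), while its log2 fold change of 4.64 ± 1.70 against MyoD missed the threshold (adjusted p = 0.0643). The MyoD libraries of Tnni1 spread over a ratio of 3.63 between the highest and the lowest CPM.

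Tnni3 (ENSMUSG00000035458, minus strand, chr7:4518305-4524229), the cardiac form, was low everywhere. It had 4.81, 3.66 and 3.94 TPM in the MyoD F/R/C libraries, 6.92, 16.6 and 0.432 TPM in the MyoD libraries and 10.3, 13.8 and 3.93 TPM in the MEF libraries. The groups overlapped in every comparison. These levels rested on 32, 20 and 30 counts in the MyoD F/R/C libraries, 46, 117 and 2 in the MyoD libraries, against 59, 83 and 31 in the MEF libraries. The log2 fold change with F/R/C was -1.02 ± 0.93 SE against MEF (adjusted p = 0.415) and -0.83 ± 0.93 against MyoD (adjusted p = 0.513). It was -0.19 ± 0.91 in MyoD against MEF (adjusted p = 1), and became 0.10 without MEF replicate 2 and 0.37 without MyoD replicate 3. The value against MyoD became 0.17 without MyoD replicate 2.

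Part of the Tnni3 signal came from transcripts that keep an intron and so encode no full troponin I. Of the gene's 8 annotated transcripts 4 are of this kind, and they held 65.4%, 67.4% and 64.4% of its TPM in the MyoD F/R/C libraries. In the MyoD libraries they held 39.03%, 39.5% and 0%, and in the MEF libraries 28.1%, 49.2% and 11.1%. Tnni3 overlaps the neighbouring gene Dnaaf3, which functions in the assembly of ciliary dynein arms, over 1297 bases on the same strand. Dnaaf3 averaged 1.83 ± 0.955 CPM in the MyoD F/R/C libraries, 5.93 ± 4.23 CPM in the MyoD libraries and 6.80 ± 2.71 CPM in the MEF libraries (SD, n = 3 each), so the low Tnni3 values are uncertain. Its part in them was not tested.

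The troponin C genes encode the calcium-binding subunit. Tnnc2 (ENSMUSG00000017300, minus strand, chr2:164777161-164779967), the fast form, had 2734, 2636 and 4015 TPM in the MyoD F/R/C libraries, 140, 158 and 269 TPM in the MyoD libraries and 0.148, 0.503 and 42.3 TPM in the MEF libraries. The MEF values of replicates 1 and 2 rested on 1 and 2 counts, and the groups did not overlap. Tnnc2 rose with F/R/C by a log2 fold change of 8.14 ± 1.86 SE relative to MEF (adjusted p = 0.00954), and its log2 fold change of 4.45 ± 1.56 against MyoD missed the threshold (adjusted p = 0.0555).

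Tnnc1 (ENSMUSG00000091898, plus strand, chr14:31208312-31211729), shared by slow muscle and heart, had 3593, 2513 and 4789 TPM in the MyoD F/R/C libraries, 155, 264 and 417 TPM in the MyoD libraries and 3.18, 5.90 and 46.4 TPM in the MEF libraries. It had the smallest adjusted p of the family in both comparisons of the F/R/C group, with log2 fold changes of 8.01 ± 1.20 SE against MEF (adjusted p = 0.00167) and 4.10 ± 1.00 against MyoD (adjusted p = 0.0144). Tnnc1 lies within the span of Nisch on the opposite strand, and Tnnc2 overlaps Ube2c, also on the opposite strand. Nisch averaged 789 ± 77.9 CPM in MyoD F/R/C, 707 ± 49.8 CPM in MyoD and 722 ± 21.4 CPM in MEF libraries, and Ube2c averaged 19.3 ± 3.97 CPM in MyoD F/R/C, 10.3 ± 1.15 CPM in MyoD and 9.26 ± 1.76 CPM in MEF libraries (SD, n = 3 each). The library kit marks the strand, but whether the counting used it is not given in the sources used here, and with counting that ignores strand, reads of such partners cannot be told apart.

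Counted over the family, 7 of 8 genes rose and none fell in MyoD F/R/C against MEF libraries, where 19.5% of all genes tested rose and 18.1% fell (37.6% in either direction). The median log2 fold change over all genes tested was -0.04. The 7 also kept the libraries of the groups apart in the upward direction, as 27.1% of all genes did (53.2% in either direction). Without MEF replicate 3 the same 7 genes rose, with adjusted p from 0.000192 to 0.000335 and log2 fold changes from 9.99 to 14.14. The other MEF libraries held 1 to 45 counts of each of these genes, so the fitted values depend on the prior count and are no bounds.

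Against MyoD, 5 of 8 genes rose with F/R/C (Tnnt1, Tnnt2, Tnnt3, Tnni2 and Tnnc1), beside 17.8% of all genes tested (33.9% in either direction), none fell, and Tnni1 and Tnnc2 missed the threshold. Over all genes 2796 rose and 2531 fell, and with total counts as the scaling 2295 rose and 3119 fell, with the same 5 troponins called. The ratio of mean CPM in MyoD F/R/C over MyoD libraries lay between 15.5 for Tnnt3 and 24.9 for Tnni1 in the 7 genes, so the 2 genes that missed it did not have the smaller ratios. The 7 genes kept the libraries of the groups apart, as 26.6% of all genes tested did in this direction (49.8% in either). These calls depended on single libraries. None remained without MyoD replicate 1 or without MyoD replicate 2 (adjusted p from 0.0526 to 0.170 for the 7), while 3 were left without F/R/C replicate 1, 2 without F/R/C replicate 2 and 1 without F/R/C replicate 3. Leaving out any 1 MEF library, each of which enters the shared estimate of spread, gave 7.

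In MyoD against MEF libraries no troponin gene was called, and neither was any of the 15714 genes by edgeR's quasi-likelihood test, although 732 genes had an unadjusted p under 0.05. DESeq2 called 160 genes higher and 11 lower. The log2 fold changes of the 7 genes lay between 2.98 ± 1.22 SE for Tnni2 and 3.90 ± 1.00 for Tnnc1, with adjusted p from 0.461 to 1. The 7 genes were higher in every MyoD library than in every MEF library, a separation that 4.40% of all genes tested showed in this direction and 7.52% in either. Without MEF replicate 3 all 7 rose (adjusted p from 0.00240 to 0.0104), where 0.970% of genes tested rose. DESeq2, which gave an adjusted p for 5 of the 8, called Tnnc1 (adjusted p = 0.00121) and Tnnt3 (adjusted p = 0.00678).

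**Figure D2:**
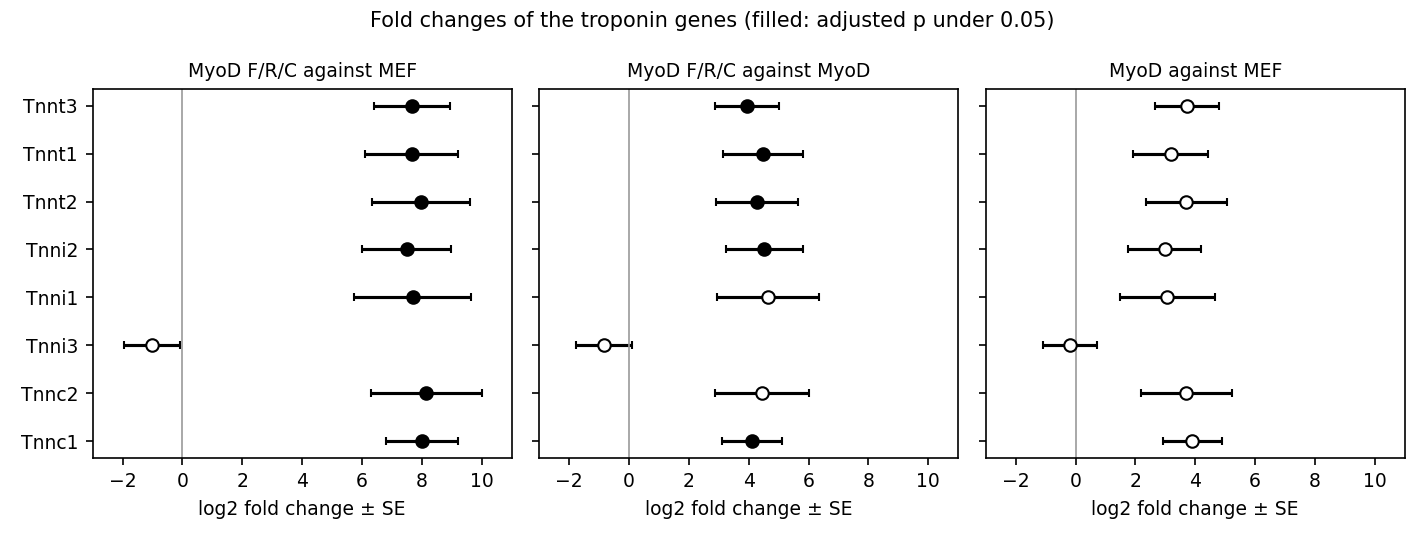
Log2 fold change ± SE of each troponin gene in the 3 comparisons, from the fit over 9 libraries; filled symbols mark an adjusted p under 0.05. 7 genes are filled against MEF and 5 against MyoD, and none is filled in MyoD against MEF. Tnni3 is filled in no panel, at -1.02 ± 0.93 and -0.83 ± 0.93 with F/R/C against MEF and MyoD and -0.19 ± 0.91 in MyoD against MEF.

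The spread between libraries ran in parallel across the genes. Replicate 3 was the highest MyoD F/R/C library for 8 of 8 genes in CPM, the highest MyoD library for 7 and the highest MEF library for 7, with Tnni3 the exception in both. The 7 genes had 248 to 710 counts each in MEF replicate 3, against 1 to 45 in MEF replicates 1 and 2. Over the 9 libraries the log2 CPM of the 7 genes correlated pairwise at 0.969 to 0.998 (Pearson, 21 pairs), and Tnni3 correlated with them at -0.432 to -0.402. These coefficients describe 9 libraries that share group differences and depth, and no p is given. In MyoD F/R/C replicate 3, transcript length moved with level: relative to the mean of replicates 1 and 2, the median log2 ratio was 0.38 over 3858 genes with transcripts under 1500 bases and -0.49 over 3090 genes with transcripts over 4000 bases. The troponin genes have mean transcript lengths of 677 to 1100 bases and lay at 0.25 to 1.03 on this scale. Its part in the height of replicate 3 was not tested.

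Set against each other per transcript length, the forms within each subunit gave a mixed fast and slow make-up in both groups with MyoD. In troponin T, Tnnt3 made up 37.2%, 43.0% and 38.1% of the summed TPM in the MyoD F/R/C libraries, 53.7%, 49.3% and 42.3% in the MyoD libraries against 84.4%, 35.6% and 38.1% in the MEF libraries. The MyoD F/R/C and MyoD libraries met at 43.0% and 42.3%, and the means of 39.4% ± 3.10 and 48.4% ± 5.75 (SD, n = 3 each) were not separated by an exact permutation test (p = 0.2, two-sided). With 3 libraries against 3 that test cannot give a p under 0.1. Tnnt1 made up 34.7%, 33.7% and 34.5% of troponin T in the MyoD F/R/C libraries and 23.8%, 26.7% and 29.7% in the MyoD libraries. In the MEF libraries it made up 10.8%, 54.4% and 40.4%, a range that held all values of both other groups. The means were 34.3% in MyoD F/R/C and 35.2% in MEF.

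The slow share of troponin T was thus higher in every MyoD F/R/C library than in every MyoD library, by 7.57 percentage points between the means, with the smallest p the exact permutation test allows (p = 0.1). Shares of all 8 genes were tested in each of 3 comparisons without adjustment, and the comparison plan named only the fast shares. Between MyoD F/R/C and MyoD libraries no other share reached this p. The cardiac share, that of Tnnt2, was 28.1%, 23.3% and 27.4% in the MyoD F/R/C libraries, 22.5%, 24.0% and 28.0% in the MyoD libraries against 4.78%, 9.97% and 21.5% in the MEF libraries. It overlapped between the groups with MyoD and lay above all MEF libraries in both (exact p = 0.1 each). On shares of counts in place of TPM this separation ended, with MEF replicate 3 at 26.1%, against 25.7% in the lowest MyoD F/R/C library and 24.2% in the lowest MyoD library. The shares in MEF replicates 1 and 2 rested on 51 and 39 troponin T counts.

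In troponin I, the slow form Tnni1 made up 66.6%, 55.2% and 66.6% of the TPM in the MyoD F/R/C libraries, 48.7%, 59.0% and 64.5% in the MyoD libraries against 2.51%, 4.62% and 58.6% in the MEF libraries. Tnni2 made up 33.3%, 44.7% and 33.4% in the MyoD F/R/C libraries, 47.7%, 34.5% and 35.4% in the MyoD libraries against 14.4%, 8.53% and 37.9% in the MEF libraries. The slow form was the larger in all 6 libraries with MyoD, and the test did not separate the fast share of MyoD F/R/C from that of MyoD (means 37.1% ± 6.57 and 39.2% ± 7.39, exact permutation p = 0.5). The cardiac form Tnni3 held a mean of 0.0739% in the MyoD F/R/C libraries and 3.55%, 6.48% and 0.0879% in the MyoD libraries. In MEF replicates 1 and 2 it held 83.1% and 86.8% of a troponin I total of only 12.4 and 15.9 TPM, and in MEF replicate 3 it held 3.50%. Counted in reads, the Tnni3 share in those 2 libraries was 89.4% (95% Wilson interval 79.7% to 94.8%) and 82.2% (73.6% to 88.4%). Such intervals cover counting error only.

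In troponin C, Tnnc1 made up 56.8%, 48.8% and 54.4% of the TPM in the MyoD F/R/C libraries and 52.7%, 62.7% and 60.7% in the MyoD libraries, with Tnnc2 as the rest. The fast share averaged 46.7% ± 4.10 in MyoD F/R/C and 41.3% ± 5.31 in MyoD libraries, which an exact permutation test did not separate (p = 0.3). In the MEF libraries Tnnc1 made up 95.6%, 92.1% and 52.3%. MEF replicates 1 and 2 rested on 22 and 46 troponin C counts, and MEF replicate 3 on 614. Wilson intervals on the count shares were at most 0.95 points wide in the MyoD F/R/C libraries, 4.71 in the MyoD libraries and 29.9 in the MEF libraries.

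**Figure D3:**
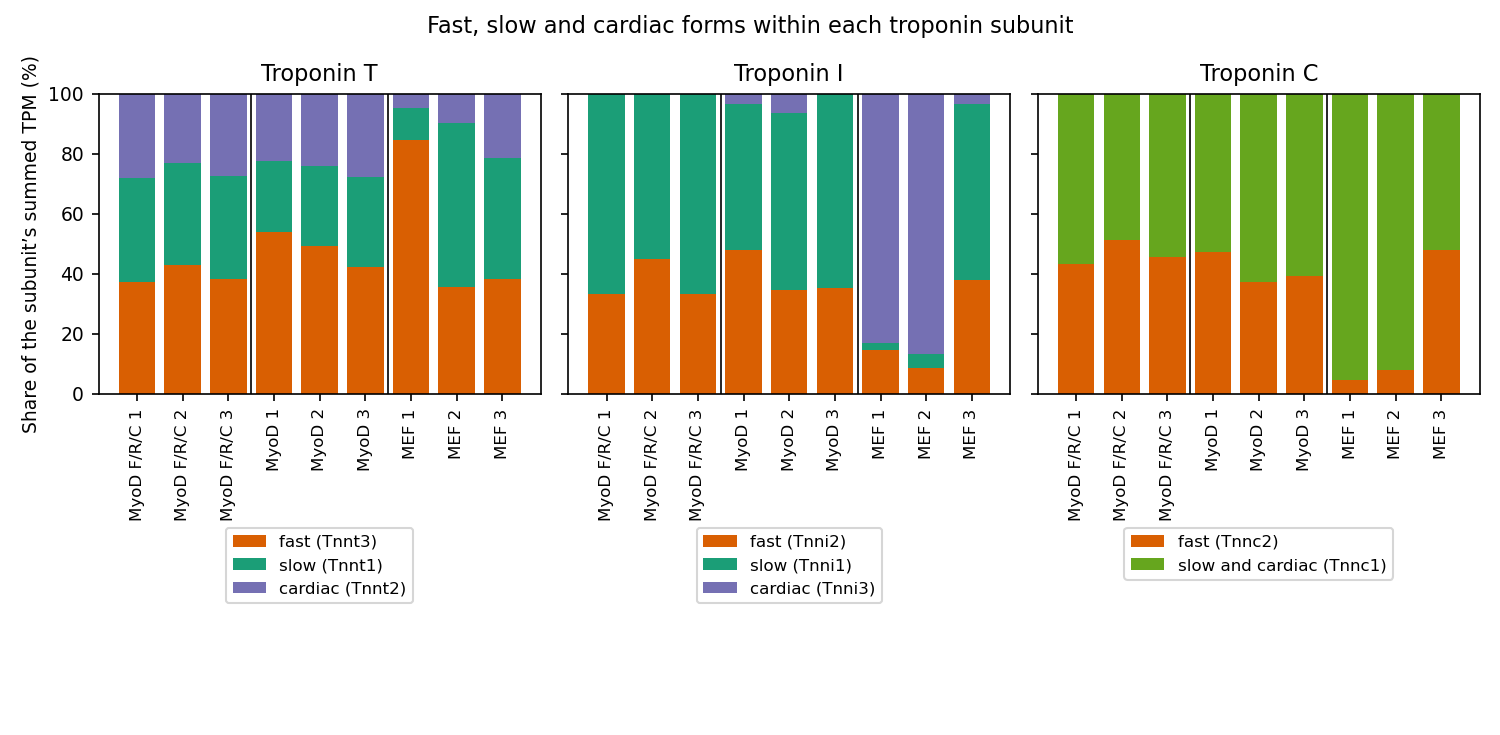
Share of each form in the summed TPM of troponin T, troponin I and troponin C, as stacked bars per library. The slow share of troponin T is higher in every MyoD F/R/C library than in every MyoD library, and the other shares of these groups overlap; cardiac Tnni3 fills most of troponin I in MEF replicates 1 and 2 and little in the other libraries.

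The 3 subunits were present in similar amounts of RNA in the MyoD F/R/C libraries. Troponin T summed to 5852, 5456 and 7656 TPM, troponin I to 4908, 5448 and 6970 TPM and troponin C to 6328, 5149 and 8804 TPM there. In the MyoD libraries the sums were 304, 377 and 666 TPM for T, 195, 257 and 491 TPM for I and 295, 422 and 686 TPM for C. The ratio of I to T was 0.839, 0.998 and 0.910 in the MyoD F/R/C libraries, above the 0.641, 0.681 and 0.737 of the MyoD libraries without overlap. The ratio of C to T was 1.08, 0.944 and 1.15 in the MyoD F/R/C libraries and 0.971, 1.12 and 1.03 in the MyoD libraries, which overlapped.

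The genes differed in how many transcripts carried their level. A single transcript held 99.6% of Tnnc2, 98.2% of Tnni1 and 98.0% of Tnnc1 on average in the MyoD F/R/C libraries, and Tnni2-201 held 78.7% ± 6.62 of Tnni2 (SD, n = 3). The troponin T genes were divided more finely. Of 13 annotated transcripts of Tnnt1, 15 of Tnnt2 and 27 of Tnnt3, 5 each held at least 5% of the gene, and the leading ones held 34.9% ± 4.69, 45.8% ± 2.05 and 36.8% ± 5.47. In the MyoD libraries the same leading transcripts of Tnnt1, Tnnt2 and Tnnt3 held 31.4% ± 6.47, 39.8% ± 6.91 and 23.4% ± 5.95. The leading transcript of Tnnt3, Tnnt3-215, held 30.4%, 39.8% and 40.0% in the MyoD F/R/C libraries and 16.6%, 26.3% and 27.4% in the MyoD libraries, with no overlap.

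The exons that distinguish these transcripts follow, so that what the groups include or leave out can be read. They are the coding exons of at least 30 bases that 5% to 95% of the spanning transcripts included in the MyoD F/R/C libraries, a lower limit of length set after the values were seen. Capitals mark the alternative exon, and small letters the 15 bases on each side in the spliced transcript, 5′ to 3′ on the strand of the gene. The coordinates are those of the exon in GRCm38, and the letters are from the GENCODE transcripts. The Tnnt3 exon of 39 bases is at chr7:142507750-142507788, the Tnnt2 exon of 30 bases at chr1:135843785-135843814 and the Tnnt1 exon of 33 bases at chr7:4513581-4513613. The lengths of these 3 are multiples of 3, so that leaving them out keeps the reading frame. In the transcripts used, the exon just before holds 15 coding bases for the Tnnt3 exon, 12 for the Tnnt2 exon and 27 for the Tnnt1 exon. Coding exons further upstream are not counted in these lengths.
Tnnt3 exon of 39 bases: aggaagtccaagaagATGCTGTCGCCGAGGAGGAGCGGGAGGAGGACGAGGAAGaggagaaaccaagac
Tnnt2 exon of 30 bases: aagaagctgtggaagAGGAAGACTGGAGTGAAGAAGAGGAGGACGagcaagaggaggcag
Tnnt1 exon of 33 bases: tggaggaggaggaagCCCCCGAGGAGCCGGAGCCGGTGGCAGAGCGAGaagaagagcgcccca

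Near the other end of Tnnt3 lie exons of 41 bases of which a transcript holds either the first, at chr7:142513665-142513705, or the second, at chr7:142514326-142514366. They are shown with the flanks they share, so that the change of letters between the alternatives can be read directly.
Tnnt3 first exon of 41 bases: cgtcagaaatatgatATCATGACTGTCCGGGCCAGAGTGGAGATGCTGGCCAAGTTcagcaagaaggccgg
Tnnt3 second exon of 41 bases: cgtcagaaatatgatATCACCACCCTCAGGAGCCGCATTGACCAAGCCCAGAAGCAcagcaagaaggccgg

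Inclusion was taken as the TPM of the protein-coding transcripts that hold the exon, as a percentage of those that hold or skip it, called spanning here. Transcripts with an exon of other boundaries at that place were left out. It rests on the abundance estimates of whole transcripts and not on reads across junctions, and was not tested. The 39-base exon of Tnnt3 was included in 69.3%, 79.6% and 77.6% of the MyoD F/R/C libraries' Tnnt3 and in 43.9%, 49.96% and 50.01% of the MyoD libraries' Tnnt3 (means 75.5% ± 5.46 and 48.0% ± 3.49, SD, n = 3 each). No MyoD F/R/C library reached down to a MyoD library. MEF replicate 3 stood at 88.1%, on 371 spanning counts, while MEF replicates 1 and 2 had too few, with 34.0 and 3.88 estimated counts.

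The 30-base exon of Tnnt2 was included at 64.6%, 62.8% and 62.2% in the MyoD F/R/C libraries and at 54.6%, 39.1% and 42.9% in the MyoD libraries, again without overlap, and at 82.0% in MEF replicate 3 on 237 spanning counts. In the heart, an acidic exon near the start of this gene's coding sequence is used in the embryo and skipped in the adult. The 33-base exon of Tnnt1 ran the other way, with 50.1%, 50.1% and 48.4% in the MyoD F/R/C libraries, 52.5%, 61.6% and 58.0% in the MyoD libraries and 55.0% in MEF replicate 3. The first of the 41-base exons of Tnnt3 was the rarer in all 6 libraries with MyoD, at 9.99%, 8.55% and 3.69% in MyoD F/R/C and 17.2%, 13.8% and 3.28% in MyoD libraries, and the groups overlapped. Of the coding exons under 30 bases, a 9-base exon of Tnnt2 was lower in MyoD F/R/C (27.3%, 29.9% and 32.1%) than in MyoD libraries (37.2%, 55.6% and 48.6%). An 18-base exon of Tnnt3 was higher there (72.2%, 79.2% and 74.4%, against 59.6%, 69.4% and 58.6%). The other short coding exons overlapped between these groups.

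**Figure D4:**
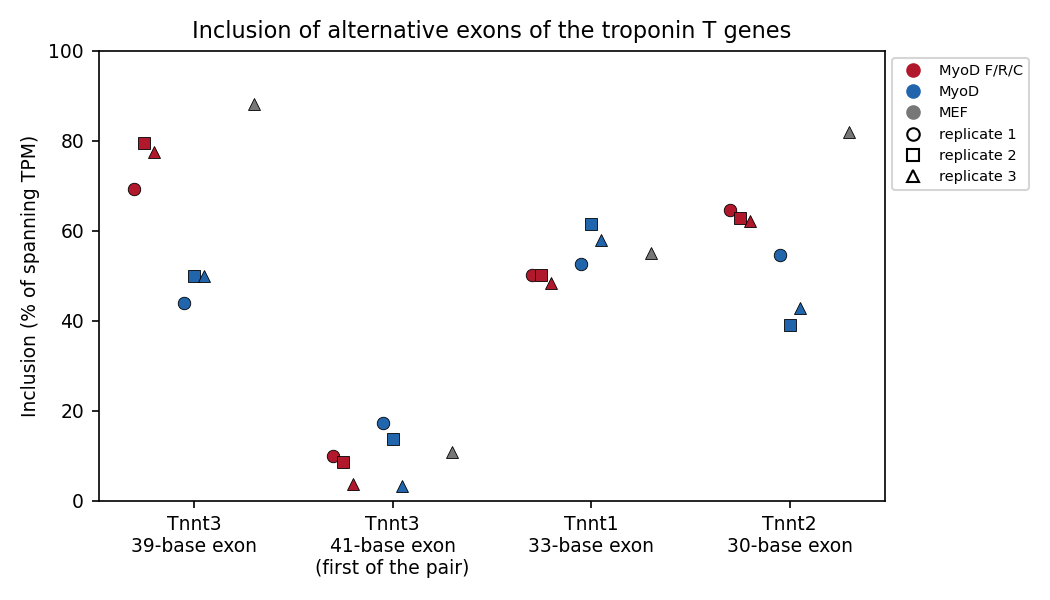
Inclusion of 4 alternative exons of the troponin T genes, in percent of the TPM of the transcripts that hold or skip them, for the libraries with at least 100 spanning counts. MyoD F/R/C libraries lie above MyoD libraries for the Tnnt3 exon of 39 bases and the Tnnt2 exon of 30 bases, and below them for the Tnnt1 exon of 33 bases.

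Splicing regulators active in muscle changed alongside. Of 13 such genes tested 9 rose and 2 fell with F/R/C both against MEF and against MyoD, with a median log2 fold change of 1.41 against MEF beside -0.04 for all genes. Over all genes tested 19.5% rose and 18.1% fell against MEF, and 17.8% rose and 16.1% fell against MyoD, and the counts of the lists that follow stand beside these shares. With a single library left out 6 to 10 of the 13 rose against MEF and 4 to 8 against MyoD (4 without MyoD replicate 1 or 2), and 2 fell in each. Rbfox1, which acts in muscle and nerve, had 58.1, 50.7 and 36.6 TPM in the MyoD F/R/C libraries, 3.61, 5.52 and 9.13 TPM in the MyoD libraries and 1.29, 2.31 and 1.40 TPM in the MEF libraries (log2 fold change against MyoD 3.31 ± 0.33 SE, adjusted p = 0.000620). Celf2 and Rbm20, a regulator of titin splicing, also rose against MyoD (2.90 ± 0.32, adjusted p = 0.000830, and 4.304 ± 0.75, adjusted p = 0.00413). Mbnl1, which moves transcripts toward adult exons in muscle, and Ptbp1, a repressor of tissue-specific exons, fell against MyoD (-1.78 ± 0.28, adjusted p = 0.00256, and -1.42 ± 0.22, adjusted p = 0.00253). Mbnl2 did not pass (-0.11 ± 0.29, adjusted p = 0.795). Their part in the inclusion of the troponin exons was not tested.

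The partners of troponin on the thin filament moved in the same direction with exceptions. Of 11 tested, 8 rose and 1 fell against MEF (9 and 1 without MEF replicate 3), and 7 rose and 1 fell against MyoD, where 3 to 9 rose with a single library left out (3 without F/R/C replicate 2 or 3 or MyoD replicate 1 or 2, and 4 without F/R/C replicate 1). Tropomyosin Tpm2 had 5632, 5153 and 6779 TPM in the MyoD F/R/C libraries, 482, 578 and 1055 TPM in the MyoD libraries and 440, 384 and 641 TPM in the MEF libraries (log2 fold change against MEF 3.72 ± 0.45 SE, adjusted p = 0.000735). Tpm3 fell with F/R/C by 1.30 ± 0.21 on the log2 scale (adjusted p = 0.00242). Tmod1 and Tmod4, which cap the pointed end of actin, rose against MEF (6.62 ± 0.41, adjusted p = 0.000177, and 6.20 ± 0.56, adjusted p = 0.000299), and Nebl, a nebulin relative, did not pass (-0.14 ± 0.67, adjusted p = 0.885).

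Fast and slow genes outside the troponins rose together. Against MEF, 11 of 11 fast fibre genes and 9 of 10 slow fibre genes rose, with median log2 fold changes of 7.89 and 7.49. Without MEF replicate 3 these counts were 11 of 11 and 10 of 11. Against MyoD, 5 of 11 and 5 of 10 rose, a count that was 3 to 10 for the fast and 3 to 9 for the slow genes with a single library left out. Among the fast genes, Mybpc2 and Pvalb rose against MEF (8.23 ± 0.81 SE, adjusted p = 0.000375, and 8.53 ± 1.18, adjusted p = 0.00122). The fast myosin Myh2 rose against MEF (7.59 ± 1.01, adjusted p = 0.00106). It had 7.58, 2.60 and 2.35 TPM in the MyoD F/R/C libraries and 4.69, 3.83 and 6.68 TPM in the MyoD libraries, a log2 fold change of 0.00 ± 0.69 between them (adjusted p = 0.999). Of the other fast myosins, Myh4 rose against MyoD (3.20 ± 1.06, adjusted p = 0.0453, and 0.0586 to 0.194 without any 1 F/R/C or MyoD library). Myh1 averaged 240 TPM in MyoD F/R/C and 59.4 TPM in MyoD libraries and did not pass (2.32 ± 1.20, adjusted p = 0.167).

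The slow myosin Myh7 had 190, 126 and 102 TPM in the MyoD F/R/C libraries, 10.6, 3.51 and 13.8 TPM in the MyoD libraries and 0.0154, 0 and 3.98 TPM in the MEF libraries (4.41 ± 1.44 against MyoD, adjusted p = 0.0431, and 0.0791 to 0.127 without any 1 F/R/C library or MyoD replicate 1 or 2). The ventricular and slow light chain Myl2 did not pass in any comparison (-0.24 ± 0.67 against MEF, adjusted p = 0.801). All 6 isoforms of developing muscle that were listed rose against MEF, and 4 to 6 did with a single library left out (5 without F/R/C replicate 1 or 2 and 4 without F/R/C replicate 3). Against MyoD 4 rose, and 1 to 6 with a single library left out. Of these the embryonic myosin Myh3 had 2754, 2250 and 2457 TPM in the MyoD F/R/C libraries, 38.9, 56.5 and 183 TPM in the MyoD libraries and 0.293, 0.191 and 43.5 TPM in the MEF libraries (5.04 ± 1.88 against MyoD, adjusted p = 0.0675).

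Regulators of muscle and of fibre type split. Of 19 tested, 11 rose and 1 fell with F/R/C in both comparisons. The list includes Myod1 itself, whose ectopic and endogenous RNA were not separated. With a single library left out 10 or 11 rose against MEF and 7 to 11 against MyoD (7 without any 1 F/R/C library or MyoD replicate 2). The fall was that of Eya1 (log2 fold change -1.86 ± 0.62 SE against MEF, adjusted p = 0.0428), whose adjusted p was 0.0608 to 0.130 without F/R/C replicate 2 or 3, MEF replicate 1 or 2, or MyoD replicate 2. Myog, the regulator of terminal differentiation, rose by 5.07 ± 1.65 against MyoD (adjusted p = 0.0427), which was 0.0615 to 0.129 without any 1 F/R/C or MyoD library. Tead4, whose family binds the MCAT sequence named below, rose by 3.91 ± 0.41 (adjusted p = 0.000678) and Mef2c by 3.38 ± 0.50 (adjusted p = 0.00221), while Tead1 did not pass (0.21 ± 0.33, adjusted p = 0.653). Prox1 and Sox6, which act on fibre type, rose by 3.26 ± 1.04 (adjusted p = 0.0399) and 3.71 ± 0.81 (adjusted p = 0.00970), and the call of Prox1 ended without any 1 F/R/C library, MyoD replicate 1 or 2 or MEF replicate 2 (adjusted p from 0.0539 to 0.115).

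Because Tnnt2 and Tnnc1 are expressed in heart, 16 heart genes were examined beside them. Only 8 had enough counts to be tested, and 2 rose and 1 fell in each comparison of the F/R/C group, shares near those of all genes (19.5% and 18.1% against MEF, 17.8% and 16.1% against MyoD). With a single library left out 2 to 5 rose against MEF and 1 to 5 against MyoD (1 without F/R/C replicate 2 or 3, 5 without MyoD replicate 3), of 9 to 11 tested. The heart myosin Myh6 reached 3.80, 3.93 and 4.33 TPM in the MyoD F/R/C libraries against at most 0.0677 TPM in any other library. Nppb, a natriuretic peptide, rose as well (log2 fold change 5.32 ± 1.15 SE against MEF, adjusted p = 0.00777). Hand2 fell (-3.08 ± 0.74, adjusted p = 0.0116). The cardiac transcription factor Nkx2-5 had 0, 0.236 and 0.0967 TPM in the MyoD F/R/C libraries and was at 0 in all others, Irx4 was at 0 in all 9, and the atrial light chain Myl7 reached at most 0.156 TPM. Summed over the 16 genes, the level was 18.2 to 23.9 TPM in MyoD F/R/C, 8.73 to 38.8 TPM in MyoD and 11.3 to 25.2 TPM in MEF libraries, beside the 1271 to 2096 TPM of Tnnt2 in the MyoD F/R/C libraries.

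Fibroblast genes were lower in sum where the troponins were high. Their summed TPM over 10 genes was 3737 to 6621 in MyoD F/R/C, 12959 to 23910 in MyoD and 15039 to 47847 in MEF libraries, a sum that was lower in every MyoD F/R/C library than in the other groups. Of the single genes, 3 of 10 fell and none rose in each comparison of the F/R/C group, where 18.1% of all genes fell against MEF and 16.1% against MyoD. The falls were Col1a1, Col1a2 and Fn1 against MEF and Col1a2, Vim and Fn1 against MyoD. Against MEF 1 fell without any 1 F/R/C library, 2 without MEF replicate 1 and 5 without MyoD replicate 3, and Fn1 was also lost with the replicate block (adjusted p = 0.0557). Against MyoD none fell without F/R/C replicate 2 or 3, 1 fell without F/R/C replicate 1 or MyoD replicate 3, and the replicate block gave 1 higher and 2 lower. Col1a2 fell by 2.94 ± 0.54 on the log2 scale against MEF (adjusted p = 0.00391), and Thy1 did not pass (-0.11 ± 0.85, adjusted p = 0.930). Of 10 smooth muscle genes 1 rose (Synpo2) and 1 fell (Cald1) in each, no more than the shares over all genes, and their summed TPM was 662 to 1380 in MyoD F/R/C, 480 to 2674 in MyoD and 1297 to 3726 in MEF libraries. The part of these cells in the troponin differences was not tested. In MyoD against MEF no gene of any of the 9 lists was called by edgeR's quasi-likelihood test. With the replicate block 1 slow fibre gene and 1 thin filament partner rose there, and without the filter on low counts 1 fast, 1 slow and 1 thin filament gene. DESeq2 called 4 fast genes, 1 slow gene, 2 thin filament partners and 2 splicing regulators higher. Without MEF replicate 3, 10 of 11 fast, 5 of 11 slow and 5 of 6 developmental genes, 6 of 11 thin filament partners, 3 of 19 regulators and 1 of 13 splicing regulators rose there.

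The genes with the most similar profiles over the 9 libraries were muscle genes for 7 of the troponins. By Pearson correlation of log2 CPM among 11737 genes, the nearest were Hrc (0.995) for Tnnt3, Myoz2 (0.998) for Tnnt1, Trim72 (0.999) for Tnnt2, Pdlim3 (0.998) for Tnni2, Myom2 (0.998) for Tnni1, Myl1 (0.999) for Tnnc2 and Ppp1r27 (0.998) for Tnnc1. For Tnni3 the nearest were Phyh (0.957), a peroxisomal enzyme of fatty acid oxidation, Acad9 (0.956) and Gprasp2 (0.941). These values describe 9 libraries and carry no p.

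Troponin T and I genes lie in pairs on the chromosomes, and 1 of the 3 pairs joins forms of the same fibre type. Fast Tnnt3 and fast Tnni2 share a stretch of chromosome 7 with 54.4 kb between them, and cardiac Tnnt2 and slow Tnni1 share a stretch of chromosome 1 with 25.4 kb between them. Both members of these pairs rose against MEF. Slow Tnnt1 and cardiac Tnni3 are 1922 bases apart on the minus strand of chromosome 7. There Tnnt1 had 879, 834 and 1550 CPM in the MyoD F/R/C libraries, and its neighbour Tnni3 1.34, 0.912 and 1.44 CPM.

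Promoter sequence was available for 6 of the 8 genes as 8 windows of RefSeq (GRCm38.p6), which were searched on both strands over the 250 bases before the annotated start. MyoD and its relatives bind the E-box, CANNTG, which was found in 66.2% of 32851 such windows (mean 1.16 per window). All 8 troponin windows held at least 1. The first starts of Tnnt2 and Tnni1 held 4 each, Tnnc1 and Tnnc2 2 each, and Tnnt1 and Tnni3 1 each. The E-box with a GC centre, CAGCTG, which is also counted among the E-boxes, was in 13.0% of all windows. It was in the first window of Tnnt2 (2 copies) and in both of Tnni1. The Tnni1 windows overlap and hold the same copy, 68 bases before the first start and 158 before the second. The 2 E-boxes of the second Tnni1 window also lie in the first, so these windows are not independent. The MCAT sequence CATTCC, bound by the Tead factors, was in 12.6% of all windows, and in those of Tnnt2 (27 bases before the start) and Tnnc1 (58 bases before it). The MEF2 consensus, present in 2.92% of all windows, was in none of the 8. A match describes the letters in these windows only. The 200 bases before the start are given for the windows free of annotated exons of their own gene. Exons of other genes, such as Nisch around Tnnc1, were not checked. These windows belong to the genes shared with the heart, Tnnt2 at chr1:135836134-135836333 and Tnnc1 at chr14:31208112-31208311. Both are on the plus strand, with E-boxes in capitals.
Tnnt2 promoter: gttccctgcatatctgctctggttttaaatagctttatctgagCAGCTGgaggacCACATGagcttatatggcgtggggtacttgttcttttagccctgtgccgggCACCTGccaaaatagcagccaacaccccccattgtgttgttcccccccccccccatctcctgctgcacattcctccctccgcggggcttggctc
Tnnc1 promoter: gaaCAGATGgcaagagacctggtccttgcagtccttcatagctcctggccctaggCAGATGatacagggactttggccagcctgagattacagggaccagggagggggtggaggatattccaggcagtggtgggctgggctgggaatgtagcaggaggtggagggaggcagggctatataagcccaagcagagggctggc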

How the data were processed

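RNA was isolated with the RNeasy kit and libraries were made with the TruSeq Stranded mRNA protocol, per the labels' protocols. Per the submitters' processing notes the tools were bcl2fastq 2.19, Trimmomatic 0.36, kallisto 0.44 and edgeR 3.28, with build GRCm38.p6. Each library's deposited table gives 1 row per transcript, with its estimated count (expected count) and its TPM, per the file headers. Whether strand was used in counting is not stated there. The authors' deposited TPM values were summed per gene for levels, shares and exon inclusion, and the deposited estimated counts were summed per gene, rounded and tested. Transcripts were joined to genes with GENCODE M21: 121104 of 121843 matched, and the other 739 (0.200% to 0.494% of a library's counts) were left out.

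The test was edgeR's quasi-likelihood F test (version 4.0.16, R 4.3.3), two-sided, after filterByExpr (minimum count 10, minimum total 15) and TMM scaling, in a single model of all 9 libraries with a mean per group and Benjamini-Hochberg adjustment over 15714 genes and a threshold of 0.05. The SE was taken from F and the log2 fold change (their size over the root of F), and fitted values near 0 counts depend on the prior count. Shares were compared with exact permutation tests. The members, the 9 context lists (106 genes) and the rule for named genes were chosen with earlier results of these data known. The rule took all 8 troponins, of each list the 3 genes of smallest adjusted p against MEF and the 1 of largest, and Myod1, Myog, Myh2, Myh3 and Myh7. Of the genes it picked, Atp2a1, Myl6b, Mb, Myh7b, Ncam1, Myl4, Chrng, Myh8, Hcn4, Actg2 and Acta2 are not described above. Ptbp1, Mbnl1, Tpm3, Myh1, Myh4, Eya1, Vim, Prox1, Sox6, Nkx2-5, Irx4 and Myl7 were added after their values were seen. Likeness was computed over genes whose log2 CPM averaged 1 or more.

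Equal replicate numbers were checked for pairing by the correlation of deviations from the group means, with 0.1 as the limit. They correlated at 0.632 to 0.729 between MyoD and MEF and at 0.101 to 0.151 between MyoD F/R/C and MEF, where they pair the libraries by this limit, and at 0.0837, 0.119 and 0.164 between MyoD F/R/C and MyoD, where they do not. Alternatives were DESeq2 1.42.0, its size factors, total counts, other filters, length-scaled counts, 2 groups alone, a replicate block, leaving out each library, and count-based or protein-coding shares.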

Additional observations from a re-analysis of the deposited data

How the results depend on the processing

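In MyoD F/R/C against MEF, 7 troponin genes were called under each alternative run in edgeR; DESeq2 gave an adjusted p for 5 genes and called 4 of them. In MyoD F/R/C against MyoD the count of 5 was 0 to 7 when a single library was left out (0 without MyoD replicate 1 or 2, 7 without any 1 MEF library). The numbers do not meet the limit for pairing here; with the replicate block 7 were called, and fitting the 2 groups alone also gave 7. In MyoD against MEF the count of 0 was 2 by DESeq2 and 0 to 7 over single libraries left out, with 7 only without MEF replicate 3; the block changed no troponin call against MEF. Over all genes, the 2796 called higher against MyoD were 1778 to 2756 with a library left out. The 0 called higher in MyoD against MEF became 160 by DESeq2, 10 without a filter, 13 with the replicate block and 0 to 158 with a library left out; the 0 called lower became 11 by DESeq2, 1 without a filter and 0 to 3. Scaling by total counts moved the median log2 fold change of all genes to -0.20 against MyoD and -0.13 against MEF and the troponin calls stayed as they were.

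The small log2 fold changes of Tnni3 changed sign against MyoD without MyoD replicate 2 (0.17, adjusted p = 0.909 by edgeR; -1.40 to 0.17 over single libraries left out) and in MyoD against MEF without MEF replicate 2 (0.10) or MyoD replicate 3 (0.37; -1.16 to 0.37). The difference in fast share of troponin T against MEF (-13.3 points) ranged from -21.8 to 2.59 with a library left out, positive without MEF replicate 1. In MyoD against MEF it was -4.25, 2.92 from protein-coding transcripts alone, and -12.8 to 11.6 with a library left out. The fast share of troponin I against MyoD (-2.08) ranged from -5.88 to 2.18. From counts in place of TPM, inclusion was 55.8% and 62.0% for the Tnnt1 exon in MyoD F/R/C and MyoD, 69.1% for the Tnnt2 exon in MyoD F/R/C and 52.0% for the Tnnt3 exon of 39 bases in MyoD. The cause of these changes was not tested. Depth limits the MEF shares most, since MEF replicates 1 and 2 held 139 and 186 troponin counts.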

Other observations

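Genes between and beside the troponin pairs were read off after the values were seen. Lad1, the gene of a basement membrane filament protein, lies between Tnni1 and Tnnt2 on chromosome 1, 7608 and 3011 bases from them. It had 8.14, 3.19 and 8.31 CPM in the MyoD F/R/C libraries, 0.0895, 0.302 and 0.192 CPM in the MyoD libraries and 0.0465, 0.161 and 0.0923 CPM in the MEF libraries. It rose with F/R/C against MEF by a log2 fold change of 5.94 ± 0.69 SE and against MyoD by 5.02 ± 0.65 (adjusted p = 0.000641 and 0.00133 by edgeR's quasi-likelihood test). The MEF values of Lad1 lay near or below the floor of 3 counts, which was 0.121 to 0.140 CPM in the MEF libraries. Whether Lad1 differed from the troponins beside it in MEF replicate 3 therefore cannot be read. Lsp1, between Tnni2 and Tnnt3 on chromosome 7, had 172, 150 and 229 CPM in the MyoD F/R/C libraries, 139, 49.2 and 28.3 CPM in the MyoD libraries and 300, 67.5 and 45.8 CPM in the MEF libraries, and did not pass in either comparison of the F/R/C group (adjusted p = 0.692 against MEF and 0.202 against MyoD).

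Sema3g, a secreted semaphorin beside Tnnc1 on chromosome 14, rose with F/R/C against MyoD by 4.19 ± 0.61 on the log2 scale, with 8.44, 4.83 and 7.01 CPM in the MyoD F/R/C libraries and 0.269, 0.529 and 0.289 CPM in the MyoD libraries (adjusted p = 0.00211 by edgeR's quasi-likelihood test). Of the other genes next to a troponin, Snx21 beside Tnnc2 rose by 0.72 ± 0.23 against MEF (adjusted p = 0.0391) and by 0.78 ± 0.23 against MyoD (adjusted p = 0.0311), and Ppp1r12c, Pkp1, Mrpl23, Phlda3, Syt8, Syt5, Stab1 and Dnttip1 did not pass in either comparison of the F/R/C group.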
